A study of Homo sapiens with 8 samples.

Results

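The 39 genes described here encode the motors, microtubule-associated proteins and scaffolds that build the mitotic spindle, duplicate centrioles and cut the daughter cells apart. They were chosen by name, with earlier results of these data known, and each was found once in both deposited tables by its Ensembl identifier in GENCODE 29, out of 66206 rows per table. By role they fall into 12 mitotic kinesins, 15 spindle assembly genes, 3 subunits of augmin, 6 central spindle and cytokinesis genes and 3 centriole duplication genes. All 39 passed the filter on low values (0.5 RPKM, reads per kilobase of length scaled to library total, in at least 2 of 4 libraries), which kept 14662 genes in the LNA table and 13903 in the siRNA table.

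RNA was taken from the lung adenocarcinoma line A549, of human origin, in 4 groups of 2 libraries. The cells were given 25 pmol of LNA gapmer targeting LY6K-AS, a long non-coding RNA, 25 pmol of scramble LNA gapmer, 40 pmol of siRNA against YWHAG, which encodes the adaptor 14-3-3 gamma, or 40 pmol of scramble siRNA. Gapmers are antisense oligonucleotides through which RNase H cuts a target RNA, and all groups were transfected with the same lipid reagent. The LY6K-AS libraries are titled LNA1 and LNA3 and the YWHAG libraries si1 and si2, so each pair may hold separate oligonucleotides; the labels do not settle this, nor do they say that replicates were separate cultures. The p-values thus rest on the spread between libraries, which may be technical.

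The 2 tables were normalized separately, with library totals of 26179563 to 33968088 reads (LNA) and 33737727 to 34560192 reads (siRNA) behind the values, and every comparison was made within a table. A member had 187 to 9600 reads per library in the LNA table and 343 to 14451 in the siRNA table, so no value of a member rests on fewer. No source used here pairs LY6K-AS with a gene identifier. LNCOC1, assumed here to be that gene without support from the files, had 3 and 8 reads in the LY6K-AS knockdown libraries and 34 and 17 in the scramble LNA libraries, and YWHAG had 13.5 and 4.91 RPKM in the YWHAG knockdown libraries against 163 and 158 RPKM in the scramble siRNA libraries. All 6 epithelial and all 5 A549 markers were expressed in both tables. The summed A549 markers stood at 4100 to 4530 RPKM in the LY6K-AS knockdown libraries against 5230 to 5410 in the scramble LNA libraries, and at 5370 to 5630 in the YWHAG knockdown libraries against 5040 to 5310 in the scramble siRNA libraries. The summed epithelial markers stood at 1510 to 1520 RPKM in the LY6K-AS knockdown libraries against 1270 to 1280 in the scramble LNA libraries, and at 1170 to 1220 in the YWHAG knockdown libraries against 853 to 939 in the scramble siRNA libraries; the part of either list in the results was not tested. Summed RPKM was at most 3.35 for 6 immune, 9.62 for 6 fibroblast and 0.08 for 5 endothelial markers, with PTPRC, CD3E and DCN listed at 0 in the LNA table and CD3E in the siRNA table. Mitochondrially encoded genes took 8.37% and 4.12% of reads in the LY6K-AS knockdown libraries against 8.43% and 6.43% in the scramble LNA libraries, and 14.0% and 18.2% in the YWHAG knockdown libraries against 15.3% and 18.2% in the scramble siRNA libraries.

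Mitotic kinesins walk on, cross-link or depolymerize microtubules, so that poles separate, chromosomes congress and the central spindle forms. Spindle assembly factors nucleate, bundle and anchor these microtubules, augmin seeds branches along them, and centralspindlin, PRC1 and the RhoA activator ECT2 place the contractile ring. Most of these genes are transcribed late in the cell cycle through the promoter element CHR (cell cycle genes homology region), which binds the MuvB core of the DREAM complex and its B-MYB and FOXM1 forms, often beside CCAAT boxes that bind NF-Y. Their RNA is therefore high in dividing cells and low in resting ones.

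Because nearly all members were lower after LY6K-AS knockdown, their promoters were read for these elements, and 5 are shown, a gene from each role. Windows run from 250 bases before to 50 bases after the annotated start and come from RefSeq (GRCh38.p14); 35 of the 39 members matched by symbol, and TPX2, AURKA, FAM83D and RACGAP1 did not. Capitals mark a CCAAT box, spelled by its name, a CHR of the form TTTGAA or an E2F site (TTTCCCGC, TTTGGCGC, TTTCGCGC or TTTGCCGC), each sought on both strands. They also mark the other common form of the element, TTTAAA, which KIF20A carries. The windows are chr5:138178862-138179161 (plus strand) for KIF20A, chr14:55191536-55191835 (minus) for DLGAP5, chr10:93496362-93496661 (plus) for CEP55, chr4:127880643-127880942 (plus) for PLK4 and chr18:46104135-46104434 (plus) for HAUS1, written 5′ to 3′ along the gene.
KIF20A: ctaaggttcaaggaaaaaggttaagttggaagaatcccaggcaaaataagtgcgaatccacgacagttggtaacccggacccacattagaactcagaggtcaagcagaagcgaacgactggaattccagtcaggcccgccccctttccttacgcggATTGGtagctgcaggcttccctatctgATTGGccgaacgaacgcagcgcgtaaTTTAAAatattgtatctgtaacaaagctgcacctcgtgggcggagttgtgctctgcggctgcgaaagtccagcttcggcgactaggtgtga
DLGAP5: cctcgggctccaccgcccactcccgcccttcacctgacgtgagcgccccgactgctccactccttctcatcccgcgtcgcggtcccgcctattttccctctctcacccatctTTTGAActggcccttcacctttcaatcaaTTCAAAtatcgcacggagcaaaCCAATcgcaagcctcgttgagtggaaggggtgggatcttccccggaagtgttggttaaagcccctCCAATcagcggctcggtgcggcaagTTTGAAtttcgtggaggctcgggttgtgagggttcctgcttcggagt
CEP55: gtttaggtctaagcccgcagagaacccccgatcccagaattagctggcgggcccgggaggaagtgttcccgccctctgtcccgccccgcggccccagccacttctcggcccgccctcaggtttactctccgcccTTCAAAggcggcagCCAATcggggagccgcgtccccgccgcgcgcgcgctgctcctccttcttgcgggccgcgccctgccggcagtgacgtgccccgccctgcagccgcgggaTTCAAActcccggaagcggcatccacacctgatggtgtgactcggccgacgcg
PLK4: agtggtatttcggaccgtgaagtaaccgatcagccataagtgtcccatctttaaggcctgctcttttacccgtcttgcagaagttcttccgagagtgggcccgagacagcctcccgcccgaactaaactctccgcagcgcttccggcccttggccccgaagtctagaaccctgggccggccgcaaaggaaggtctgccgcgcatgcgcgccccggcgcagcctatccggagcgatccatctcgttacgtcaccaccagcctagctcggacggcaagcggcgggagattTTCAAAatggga
HAUS1: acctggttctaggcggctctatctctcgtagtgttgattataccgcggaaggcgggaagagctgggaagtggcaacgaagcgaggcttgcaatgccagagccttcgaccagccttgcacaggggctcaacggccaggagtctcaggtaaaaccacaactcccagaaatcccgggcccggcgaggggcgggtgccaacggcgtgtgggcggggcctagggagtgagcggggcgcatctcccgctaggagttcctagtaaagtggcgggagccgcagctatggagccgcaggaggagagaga

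A CHR match stood in 29 of 35 member promoters (82.9%), against 24.3% of all RefSeq promoters and 17.2% of 93 promoters of other spindle, centrosome and cytokinesis genes. It was found in 11 of 12 kinesins, 9 of 12 spindle assembly genes, 5 of 5 cytokinesis genes, 3 of 3 centriole genes and 1 of 3 augmin subunits. The match lay between 60 bases before and 40 bases after the start in 77.1% of member promoters and in 8.1% of all promoters. CCAAT boxes stood in 68.6% of member promoters against 35.7% of all, and E2F sites in 11.4% against 3.3%. KIF22, KNSTRN, CKAP2, TACC3, HAUS1 and HAUS6 had no CHR match in this window. The window follows the RefSeq start, which can differ from the GENCODE gene start. Among several such windows, that of TACC3 ends at 1720680, before the gene start at 1721490. That of KIF11, which has a match, ends at 92593179, before the gene start at 92593286. Those of CKAP2 and of KIF20A, which has a match, begin at 52455738 and 138178862, inside genes that start at 52455429 and 138178719. A match or its absence thus depends on the start used. These are letter matches and not tested sites; matches of different motifs could overlap, and with TTTGAA as the only CHR form the shares were 71.4% of members and 15.4% of all promoters.

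**Figure D1:**
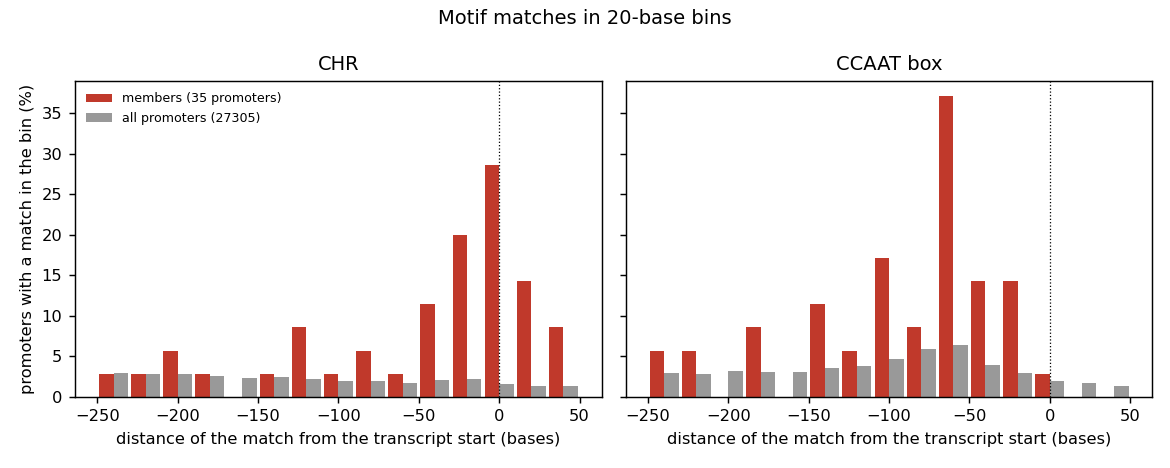
Share of promoters (%) with a CHR (left) or CCAAT box (right) match in each 20-base bin of distance from the transcript start, for the members (red) and all RefSeq promoters (grey). CHR matches of the members crowd around the start, with 28.6% of member promoters in the bin at the start against 1.58% of all promoters.

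The first comparison asked how these genes stood after LY6K-AS knockdown, as the labels name it. Of the 39 genes, 38 were lower, as were 49.7% of all genes tested, and NUMA1 stood near its controls. All 38 lay below both scramble LNA libraries in both LY6K-AS knockdown libraries, as did 30.5% of all genes tested (31.4% lay above both, with no member), and all 38 had an unadjusted p under 0.05 (limma), as did 11.7% of all genes tested in that direction. The median log2 change, on the log2(RPKM + 1) scale used throughout, was −0.94 against 0.00 over all genes, and the median member kept 49.4% of its control level (range 35.6% for DLGAP5 to 109% for NUMA1). No gene of the 14662 passed adjustment (limma, smallest adjusted p 0.103; limma voom on the recovered reads also called 0), with 1718 lower and 1988 higher at an unadjusted p under 0.05. With the spread pooled over all 8 libraries 8 members passed, all lower: KIF2C, TPX2, NUSAP1, SPAG5, DLGAP5, GTSE1, RACGAP1 and CEP55 (limma adjusted p 0.0451 to 0.0461). By that fit 0.303% of 12861 genes were called lower. Without knockdown library 1 the members' median was −1.15, with NUMA1 higher at 0.29. Without knockdown library 2 it was −0.76, with NUMA1 at −0.09. These fits assume that the lone knockdown library varies like the controls. An exact permutation test of 2 libraries against 2 cannot go below a two-sided p of 0.333. In bulk RNA, fewer cells in mitosis and less RNA per cell cannot be told apart. MKI67, a marker of cycling cells, had 18.9 and 14.9 RPKM in the knockdown libraries against 36.9 and 38.8 RPKM in the controls (−1.12 ± 0.14), and its part in the result was not tested.

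The knockdown libraries differed in depth of effect. Members had a median difference from the control mean of −0.76 in LY6K-AS knockdown library 1 and −1.15 in library 2, and 38 of 39 were lower in library 2 than in library 1. The scramble LNA libraries differed by a median of 0.00 over the members. Library 2 was also the library with 4.12% mitochondrial reads. Without library 2 all 39 members were lower, and leaving mitochondrial reads out of the totals gave a median of −0.96. Across all genes tested the log2 change went with transcript GC content (Spearman rho 0.54, Pearson r 0.51), and the members, at 34.1% to 60.4% GC with a median of 43.6%, showed rho 0.41 and r 0.45 (n = 39 genes, which share libraries). With the GC trend removed the members' median was −0.86 and all 39 were lower.

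**Figure D2:**
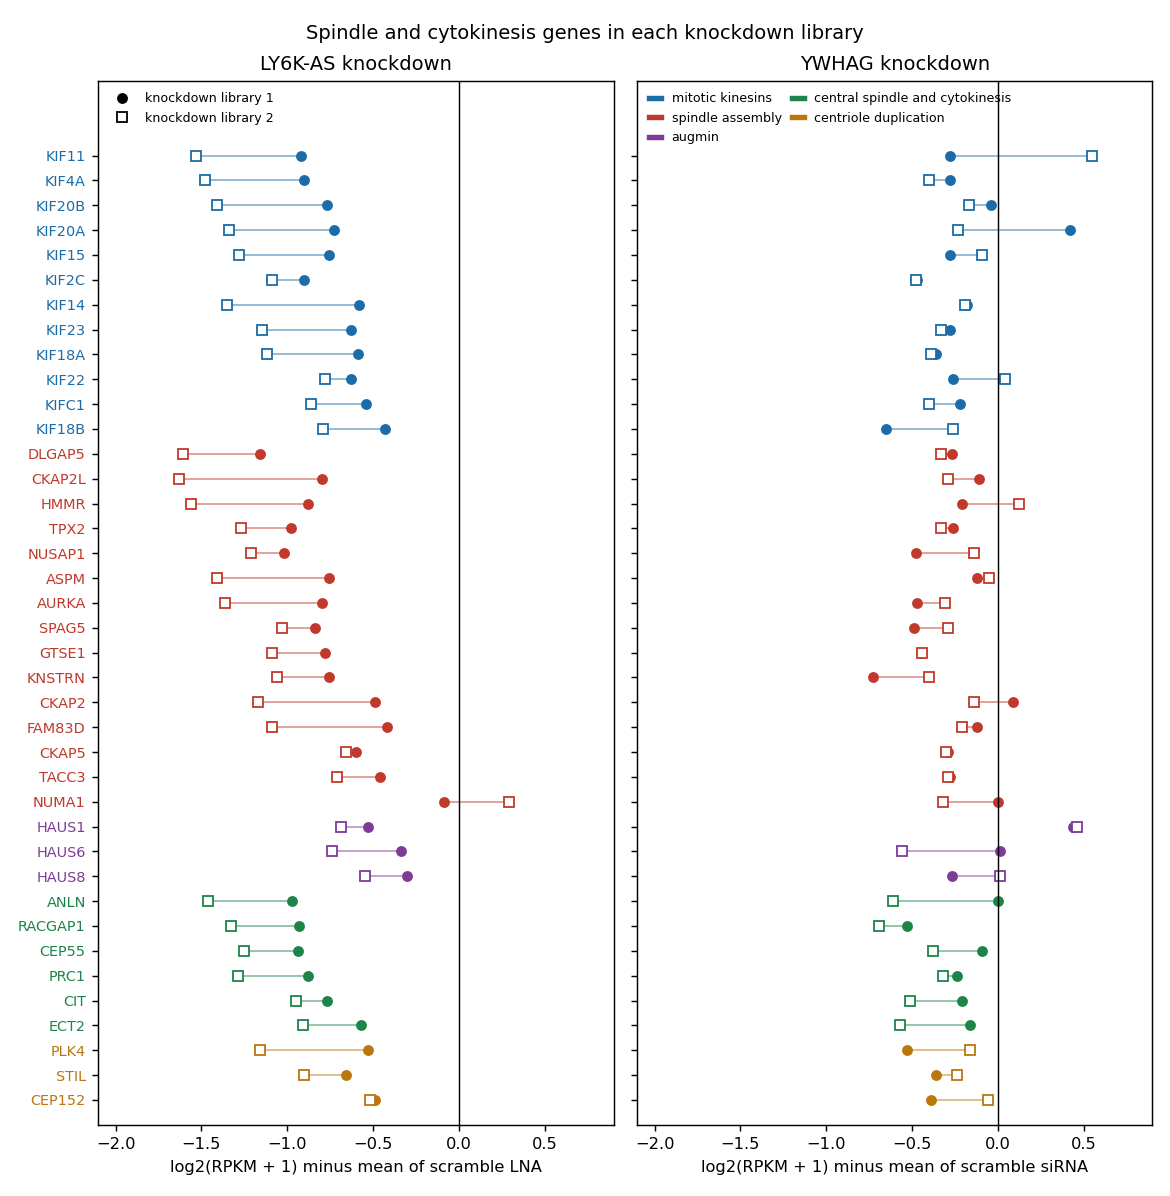
Difference in log2(RPKM + 1) of each knockdown library from the mean of its 2 scramble libraries, for every member by role, after LY6K-AS knockdown (left) and YWHAG knockdown (right); circles are library 1 and squares library 2. After LY6K-AS knockdown all points but that of NUMA1 in library 2 lie left of 0, and apart from NUMA1 library 2 lies farther left, while after YWHAG knockdown most lie between −0.75 and 0.

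All 12 mitotic kinesins were lower after LY6K-AS knockdown (median −0.98, range −1.22 to −0.61). KIF11 (ENSG00000138160.5, chromosome 10, 92593286 to 92655395, plus strand; gene coordinates are those of GENCODE 29 on hg38), the motor that slides antiparallel microtubules to separate the poles, had 11.9 and 7.45 RPKM in the knockdown libraries against 23.4 and 23.3 RPKM in the controls. Its log2 change was −1.22 ± 0.22 (SE), and KIF15, which can stand in for KIF11, had 2.07 and 1.15 RPKM in the knockdown libraries against 4.21 and 4.21 RPKM in the controls. For both motors of pole separation the groups did not overlap, and 30.5% of all genes tested lay below both controls as well. KIF4A, a chromokinesin that also limits the central spindle overlap, had 8.34 and 5.27 RPKM in the knockdown libraries against 16.4 and 16.5 RPKM in the controls (−1.19 ± 0.21). KIF2C, a kinesin that depolymerizes microtubules at centromeres (ENSG00000142945.12, chromosome 1, 44739818 to 44767767, plus strand), had 8.23 and 7.12 RPKM against 16.5 and 16.0 RPKM in the controls. With a log2 change of −1.0 ± 0.10 it had the smallest p of the kinesins (limma adjusted p = 0.103).

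KIF22, a chromokinesin that pushes chromosome arms outward, had 18.9 and 16.9 RPKM in the LY6K-AS knockdown libraries against 30.3 and 29.3 RPKM in the controls (−0.71 ± 0.10). KIF18A, which damps chromosome oscillation, was at −0.86 ± 0.21. Its paralog KIF18B, which acts on astral microtubules, differed least of the 12, with 19.9 and 15.3 RPKM in the knockdown libraries against 26.2 and 28.3 RPKM in the controls (−0.61 ± 0.15). The groups did not overlap for any of the 3, each below both controls like 30.5% of all genes tested. KIFC1, the minus-end motor that clusters extra centrosomes, had 2.50 and 1.81 RPKM in the knockdown libraries against 4.11 and 4.09 RPKM in the controls (−0.70 ± 0.14). The other kinesins are given by their log2 change: KIF20A, which carries the chromosomal passenger complex to the midzone, was at −1.04 ± 0.22, KIF20B at −1.09 ± 0.24, KIF14, a partner of citron kinase, at −0.96 ± 0.28, and KIF23, the motor subunit of centralspindlin, at −0.89 ± 0.20.

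Of 15 spindle assembly genes 14 were lower (median −0.94). DLGAP5 (HURP), which bundles kinetochore fibres (ENSG00000126787.12, chromosome 14, 55148112 to 55191678, minus strand), had 8.01 and 5.56 RPKM in the LY6K-AS knockdown libraries against 18.9 and 19.3 RPKM in the controls. Its log2 change of −1.38 ± 0.18 was the lowest of the 39 on this scale. CKAP2L was lower than DLGAP5 with voom (−1.6 against −1.54), with a pseudocount of 0.1 (−1.52 against −1.5) and without knockdown library 1 (−1.63 against −1.61), and KIF20A was lowest on the values as deposited (−0.95 against −0.73). TPX2, which activates Aurora A and drives branching nucleation, had the highest control level of the members, and stood at 39.3 and 32.0 RPKM in the knockdown libraries against 77.8 and 79.1 RPKM in the controls (−1.12 ± 0.13). Its partner AURKA, the kinase Aurora A itself, had 27.9 and 18.7 RPKM in the knockdown libraries against 49.4 and 49.2 RPKM in the controls (−1.08 ± 0.21). NUSAP1, a bundler of microtubules near chromatin, had 13.0 and 11.3 RPKM in the knockdown libraries against 28.1 and 27.1 RPKM in the controls (−1.12 ± 0.10), the smallest p of all members (limma adjusted p = 0.103). None of these 4 genes had overlapping groups, and 30.5% of all genes tested lay below both controls as they did.

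SPAG5 (astrin) and KNSTRN (kinastrin) bind each other at attached kinetochores. SPAG5 had 13.6 and 11.8 RPKM in the knockdown libraries against 25.5 and 24.8 RPKM in the controls (−0.94 ± 0.10), and KNSTRN was at −0.91 ± 0.13. HMMR, an adaptor that brings TPX2 to the poles, was at −1.22 ± 0.25, CKAP2L at −1.22 ± 0.30, the pole protein ASPM at −1.09 ± 0.24 and GTSE1, an inhibitor of KIF2C, at −0.94 ± 0.13. CKAP2, a relative of CKAP2L, was at −0.83 ± 0.25 and FAM83D, which brings casein kinase 1 alpha to the spindle, at −0.75 ± 0.24. The microtubule polymerase CKAP5 (ch-TOG) and TACC3, which work as a complex on kinetochore fibres, were at −0.63 ± 0.08 and −0.58 ± 0.12. NUMA1, the pole anchor of dynein, which is also a nuclear protein outside mitosis, had 10.7 and 14.2 RPKM in the knockdown libraries against 11.2 and 11.7 RPKM in the controls (0.10 ± 0.15, limma adjusted p = 0.701). The knockdown values of NUMA1 lay on both sides of its controls, and its direction turned to −0.01 with the GC trend removed and to −0.09 without knockdown library 2.

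The 3 augmin subunits were lower, with a median of −0.54. HAUS1 had 6.81 and 6.0 RPKM in the LY6K-AS knockdown libraries against 10.4 and 10.2 RPKM in the controls (−0.61 ± 0.10). HAUS6, which binds the gamma-tubulin ring complex, had 4.04 and 2.83 RPKM in the knockdown libraries against 5.19 and 5.57 RPKM in the controls (−0.54 ± 0.16). HAUS8, the subunit that binds microtubules, had 2.40 and 1.87 RPKM in the knockdown libraries against 3.19 and 3.18 RPKM in the controls (−0.42 ± 0.12), the smallest difference of the 38 lower genes on the log2(RPKM + 1) scale. All 3 lay below both controls in both knockdown libraries, as did 30.5% of all genes tested. The other 5 augmin subunits are counted with the wider lists below.

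All 6 central spindle and cytokinesis genes were lower (median −1.09, range −1.22 to −0.74). RACGAP1, the second subunit of centralspindlin (ENSG00000161800.12, chromosome 12, 49976923 to 50033136, minus strand), had 13.4 and 10.0 RPKM in the knockdown libraries against 26.6 and 26.6 RPKM in the controls (−1.13 ± 0.16). ECT2, the exchange factor that centralspindlin recruits to activate RhoA, differed least of the 6, with 23.1 and 18.0 RPKM in the knockdown libraries against 34.0 and 35.5 RPKM in the controls (−0.74 ± 0.14). ANLN (anillin), the scaffold of the contractile ring, had 14.9 and 10.3 RPKM in the knockdown libraries against 30.2 and 30.2 RPKM in the controls (−1.22 ± 0.19). The groups did not overlap for any of these 3 genes, which lay below both controls like 30.5% of all genes tested. CIT, citron kinase of the midbody, had 4.11 and 3.52 RPKM in the knockdown libraries against 7.51 and 7.92 RPKM in the controls (−0.86 ± 0.11). CEP55, which recruits the abscission machinery, had 14.8 and 11.7 RPKM in the knockdown libraries against 29 and 29.5 RPKM in the controls (−1.09 ± 0.13). PRC1, the cross-linker on which the central spindle forms, was at −1.08 ± 0.16.

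The 3 centriole duplication genes were lower too. PLK4, the kinase that starts centriole duplication, had 3.6 and 1.96 RPKM in the knockdown libraries against 5.41 and 5.85 RPKM in the controls (−0.84 ± 0.24). STIL, its activator and substrate, had 2.67 and 2.12 RPKM in the knockdown libraries against 4.76 and 4.85 RPKM in the controls (−0.78 ± 0.12). CEP152, which recruits PLK4 to the mother centriole, had 1.15 and 1.10 RPKM in the knockdown libraries against 2.09 and 1.95 RPKM in the controls (−0.51 ± 0.10). CEP152 had the lowest control level of the 39, and at such levels the log2(RPKM + 1) scale understates a change: its knockdown mean was 55.7% of its control mean.

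**Figure D3:**
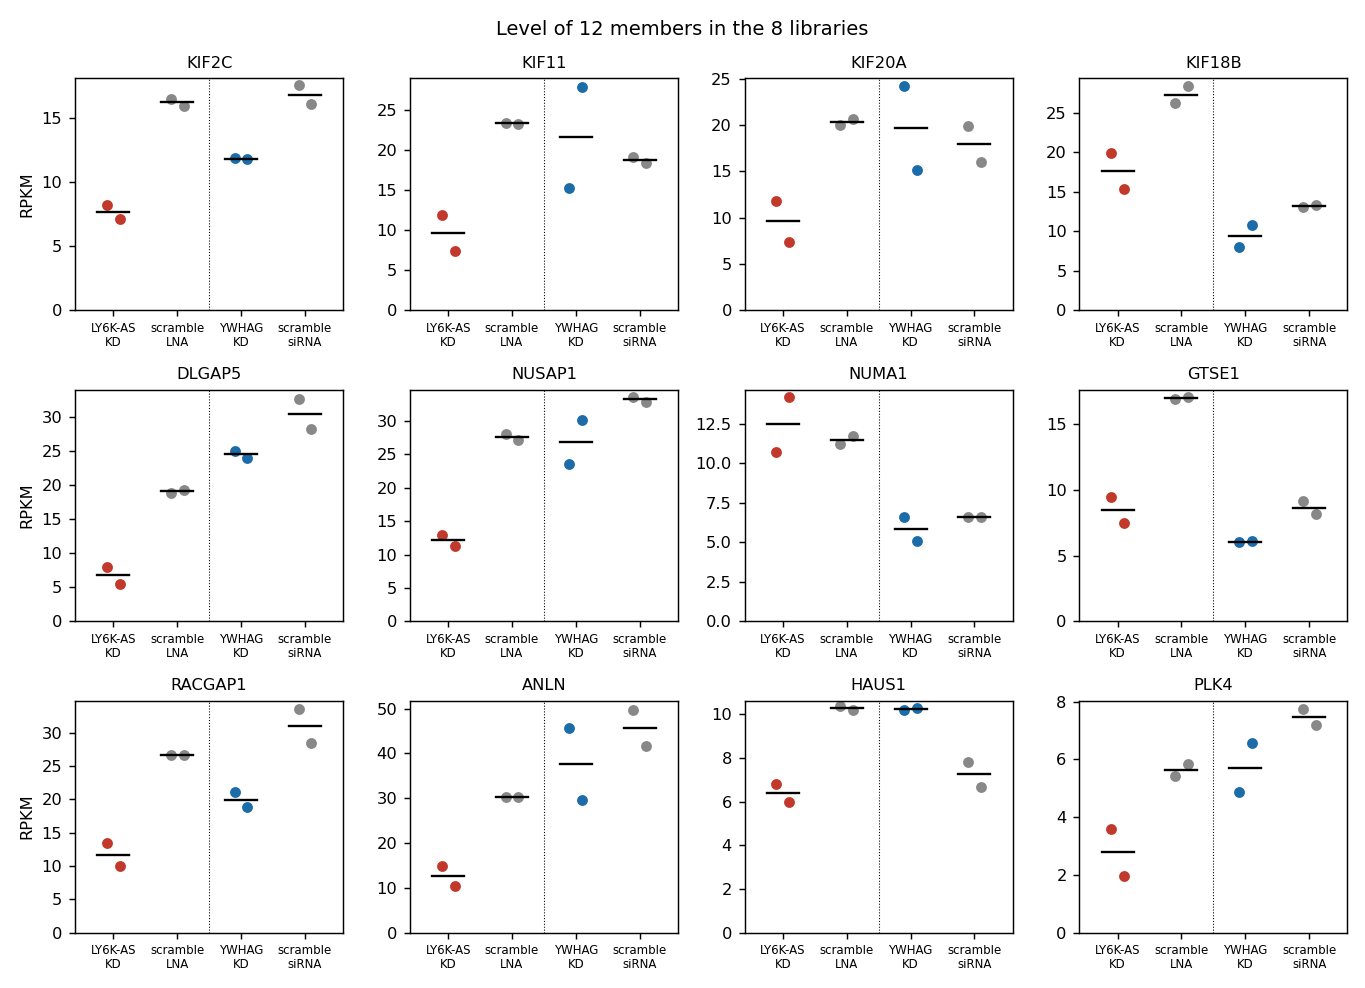
RPKM of 12 members in the 8 libraries (points) with group means (bars), each knockdown left of its scramble control; the dotted line parts the separately normalized tables, and each axis starts at 0. LY6K-AS knockdown points lie below both controls for all but NUMA1, and YWHAG knockdown points lie above both controls for HAUS1.

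The members' sequence features were set beside their change without a test. The 29 members with a CHR match had a median log2 change of −0.96 after LY6K-AS knockdown (range −1.38 to 0.10), and the 6 without one −0.66 (range −0.91 to −0.54). NUMA1, at 0.10, has a CHR match, and KNSTRN, at −0.91, has none, so the ranges overlap. The split also depends on the annotated start used for each window. HAUS1, whose printed window holds none of the 3 elements, was at −0.61. Change went with control level at rho −0.29 and r −0.32 and with gene span at rho −0.13 and r 0.01 (n = 39 genes).

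The same comparison was read for pathway genes outside the 39. Of 116 listed genes 110 were tested: 75 were lower and 35 higher (median −0.13), and 0 passed adjustment. Lower at an unadjusted p under 0.05 (limma) were 26, 23.6% against 11.7% of all genes. Higher at that p were 5 of the 110, against 13.6% of all genes. The 25 tested kinesins and kinesin light chains of transport and other work had a median of 0.02, with 12 lower and 13 higher; KIFC2 had 33.6 and 30.2 RPKM in the knockdown libraries against 21.0 and 21.1 RPKM in the controls (0.58 ± 0.10), and KIF17, a motor of cilia and dendrites, was at 0.66 ± 0.14. All 20 other centriole and centrosome genes were lower (median −0.27), as were 49.7% of all genes tested. Among the 20 were the cartwheel protein SASS6 (−0.61 ± 0.11) and CDK5RAP2 (−0.60 ± 0.10), which anchors the gamma-tubulin ring. The 16 other augmin and gamma-tubulin ring genes had a median of −0.11, with TUBGCP3 at −0.50 ± 0.10 and NEDD1 at −0.48 ± 0.10. Among 22 plus-end, dynein and spindle orientation genes (median −0.27) the tubulin-sequestering protein STMN1 had 12.4 and 9.35 RPKM in the knockdown libraries against 23.7 and 23.1 RPKM in the controls (−1.05 ± 0.15), and the severing enzyme KATNA1 was at −0.39 ± 0.10. The 27 other cytokinesis and abscission genes had a median of −0.06, with the formin DIAPH3 at −0.90 ± 0.25 and the myosin heavy chain MYH10 at −0.60 ± 0.09.

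**Figure D4:**
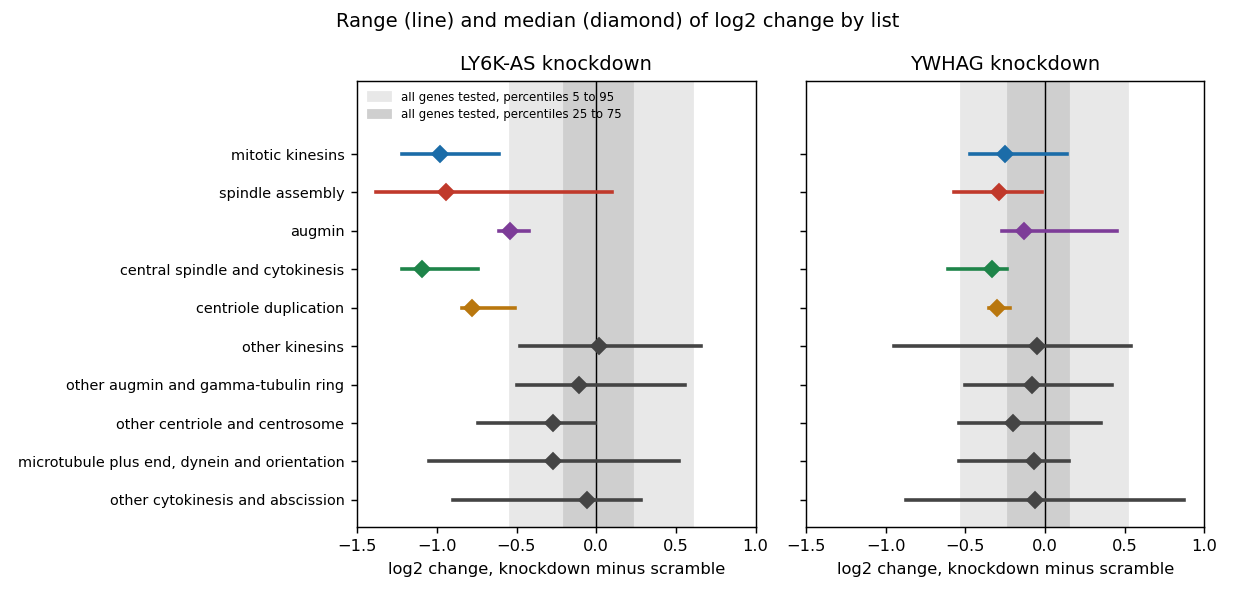
Range (line) and median (diamond) of the log2 change of each role and of 5 wider lists after LY6K-AS knockdown (left) and YWHAG knockdown (right), over grey bands for all genes tested (percentiles 5 to 95 and 25 to 75). After LY6K-AS knockdown the medians of 4 of the 5 roles lie below the band of percentiles 5 to 95, whose lower end is −0.54, where the augmin median stands, and the medians of the wider lists lie within it.

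The second comparison asked how the same genes stood when YWHAG was depleted. Of the 39 genes 36 were lower, as were 57.6% of all genes tested, and 3 higher, with a median log2 change of −0.29 against −0.05 over all genes, and the median member kept 81.1% of its control level (64.3% for RACGAP1 to 141% for HAUS1). Both YWHAG knockdown libraries lay below both scramble siRNA libraries for 27 members, against 30.8% of all genes tested, above both for 1 (20.4% of all genes) and across them for 11. None passed adjustment (limma, smallest adjusted p 0.234 among the members and 0.130 among 13903 genes, of which 1237 lower and 1044 higher genes had an unadjusted p under 0.05; voom also called 0). With the spread pooled over 8 libraries 214 genes passed (0.575% lower and 1.09% higher) and no member. At an unadjusted p under 0.05 stood 7 lower members, 17.9% against 8.90% of all genes, and 1 higher member against 7.51% of all genes. The controls themselves differed: 33 of 39 members were higher in scramble siRNA library 2 than in library 3 (the table's own numbers), by a median of 0.14 on the log2 scale. Without scramble siRNA library 2 the members' median was −0.17, and without scramble siRNA library 3 it was −0.38. Without YWHAG knockdown library 1 it was −0.29, and without YWHAG knockdown library 2 it was −0.27. MKI67 had 35.2 and 30.7 RPKM in the knockdown libraries against 51.5 and 39.4 RPKM in the controls (−0.44 ± 0.18).

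RACGAP1 had the lowest log2 change of the members after YWHAG knockdown, with 21.1 and 18.8 RPKM in the knockdown libraries against 33.6 and 28.4 RPKM in the controls (−0.61 ± 0.15 SE, limma adjusted p = 0.234). Without YWHAG knockdown library 2 KNSTRN was lower (−0.73 against −0.53). The other cytokinesis genes were at −0.36 to −0.24. CIT had 4.53 and 3.49 RPKM in the knockdown libraries against 5.92 and 4.90 RPKM in the controls (−0.36 ± 0.17), and ECT2 had 40.6 and 30.3 RPKM against 47.3 and 43.4 RPKM in the controls (−0.36 ± 0.18). CEP55 differed least of the 6, with 35 and 28.4 RPKM in the knockdown libraries against 39.3 and 35.4 RPKM in the controls (−0.24 ± 0.16). All 6 were lower in knockdown library 2 than in library 1, and ANLN was at control level in library 1 (0.00 from the control mean) and at −0.61 in library 2.

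Among the kinesins 10 were lower and 2 higher (median −0.25). KIF2C was alike in both knockdown libraries, at 11.9 and 11.8 RPKM against 17.6 and 16.1 RPKM in the controls (−0.47 ± 0.13, limma adjusted p = 0.248). KIF18A had 9.40 and 9.17 RPKM in the knockdown libraries against 12.3 and 12.3 RPKM in the controls (−0.37 ± 0.12), and KIF18B had 8.05 and 10.8 RPKM against 13.0 and 13.3 RPKM in the controls (−0.45 ± 0.17). In these 3 the groups did not overlap, nor did they in KIF4A, with 14.9 and 13.7 RPKM in the knockdown libraries against 19.5 and 17.2 RPKM in the controls (−0.34 ± 0.14). Of all genes tested, 30.8% lay below both controls in the same way. KIF11 and KIF20A split the knockdown libraries. KIF11 had 15.3 and 27.9 RPKM in knockdown libraries 1 and 2 against 19.1 and 18.4 RPKM in the controls (0.14 ± 0.29). KIF20A ran the other way, with 24.2 and 15.1 RPKM in knockdown libraries 1 and 2 against 19.9 and 16.0 RPKM in the controls (0.09 ± 0.26). KIF20A shares 132 and 68 exon bases with BRD8 and CDC23 on the opposite strand, whose reads cannot be told apart where strand was not used.

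All 15 spindle assembly genes were lower after YWHAG knockdown, from −0.57 for KNSTRN to −0.02 for CKAP2 (median −0.29). KNSTRN had 8.79 and 11.4 RPKM in the knockdown libraries against 16.4 and 14.2 RPKM in the controls (−0.57 ± 0.17), and its partner SPAG5 had 18.4 and 21.2 RPKM against 28.2 and 24.3 RPKM in the controls (−0.39 ± 0.15). GTSE1 had 6.04 and 6.09 RPKM in the knockdown libraries against 9.14 and 8.16 RPKM in the controls (−0.45 ± 0.13). These 3 were the members of this role with an unadjusted p under 0.05 (limma adjusted p 0.255 to 0.304). AURKA had 48.6 and 54.5 RPKM in the knockdown libraries against 76.0 and 60.6 RPKM in the controls (−0.39 ± 0.17), a spread between controls larger than that between knockdowns. DLGAP5, at −1.38 after LY6K-AS knockdown, was at −0.30 ± 0.14. CKAP2 had 16.3 and 13.7 RPKM in the knockdown libraries against 15.7 and 14.7 RPKM in the controls, and HMMR was at −0.04 ± 0.17. The directions of CKAP2 and HMMR turned to 0.02 and 0.01 when each library was shifted so that its median difference was 0.

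HAUS1 (ENSG00000152240.12, chromosome 18, 46104332 to 46128333, plus strand) was the sole member above both controls in both YWHAG knockdown libraries, where 20.4% of all genes tested also lay. It had 10.2 and 10.3 RPKM in the knockdown libraries against 7.82 and 6.69 RPKM in the controls (0.45 ± 0.14, limma adjusted p = 0.260). HAUS6 had 13.2 and 8.50 RPKM in the knockdown libraries against 13.2 and 12.9 RPKM in the controls (−0.27 ± 0.22), and HAUS8 had 1.79 and 2.39 RPKM against 2.32 and 2.41 RPKM in the controls (−0.13 ± 0.15). The 3 subunits of this complex thus had no shared direction. PLK4 had 4.87 and 6.55 RPKM in the knockdown libraries against 7.74 and 7.20 RPKM in the controls (−0.35 ± 0.17). STIL had 3.71 and 4.10 RPKM in the knockdown libraries against 5.63 and 4.51 RPKM in the controls (−0.30 ± 0.15). CEP152 overlapped its controls, at 1.87 and 2.61 RPKM in the knockdown libraries against 2.95 and 2.58 RPKM in the controls (−0.22 ± 0.16).

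Of the wider pathway 108 of 116 genes were tested after YWHAG knockdown, with 74 lower, 34 higher and a median of −0.07. At an unadjusted p under 0.05 stood 9 lower genes, 8.33% against 8.90% of all genes, and 5 higher genes of the 108, against 7.51% of all genes. None passed adjustment (limma). The smallest p of the 27 cytokinesis and abscission genes (median −0.06) belonged to a pair of ESCRT-III subunits: CHMP2B had 29.5 and 28.7 RPKM in the knockdown libraries against 15.0 and 16.0 RPKM in the controls (0.87 ± 0.13), and CHMP1B had 11 and 12.4 RPKM against 22.1 and 22.3 RPKM in the controls (−0.87 ± 0.13). The endosomal kinesin KIF13A was at −0.89 ± 0.14, and these 3 passed with the spread pooled over 8 libraries (limma adjusted p 0.0234, 0.0342 and 0.0373). By that fit 2 lower and 1 higher of the 108 were called, against 0.575% lower and 1.09% higher of 12861 genes. KIF5B, the conventional kinesin heavy chain, was at 0.54 ± 0.14, the plus-end protein EB1 (MAPRE1) at −0.46 ± 0.13, TUBG2 at −0.50 ± 0.12, SPICE1 at −0.54 ± 0.14, CNTROB at −0.40 ± 0.14, STMN1 at −0.54 ± 0.21 and NEDD1 at −0.34 ± 0.15.

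The third comparison tested the difference between the effects, LY6K-AS minus YWHAG, each taken within its own table, over the 12861 genes tested in both. Of the 39 members 38 were lower after LY6K-AS knockdown than after YWHAG knockdown relative to controls, as were 45.7% of all genes (median difference −0.59, all genes 0.04), and NUMA1 was not. At an unadjusted p under 0.05 stood 23 members, 59.0% against 8.86% of all genes in that direction, but none of the 39 passed adjustment, while 0.179% of all genes did (limma, 23 genes). HAUS1 came nearest (−1.06 ± 0.17, limma adjusted p = 0.0602), followed by DLGAP5 (−1.08 ± 0.23, adjusted p = 0.0910). The largest differences in size were KIF11 (−1.36 ± 0.41), HMMR (−1.18 ± 0.32) and KIF20A (−1.13 ± 0.37), whose YWHAG knockdown libraries overlapped their controls. KIF18B was at −0.16 ± 0.24, and its effects were −0.61 and −0.45 after LY6K-AS and YWHAG knockdown. Across the 39 members the effects of the knockdowns went together at r 0.09 and rho 0.02. On the LNA values as deposited, per gene span, the median difference was −0.25, with 10 members at an unadjusted p under 0.05. Without LY6K-AS knockdown library 1, 16 members passed adjustment (41.0%, against 9.21% of all genes), with the lone library assumed to vary like the rest. Without YWHAG knockdown library 1 it was 4 (10.3% against 5.58%) and without YWHAG knockdown library 2 it was 2 (5.13% against 5.71%, at background). No gene passed without LY6K-AS knockdown library 2 or without any of the 4 scramble libraries. Without scramble LNA library 1, scramble LNA library 2 or scramble siRNA library 3, 14, 14 and 12 members had an unadjusted p under 0.05, against 4.83%, 4.91% and 5.70% of all genes.

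**Figure D5:**
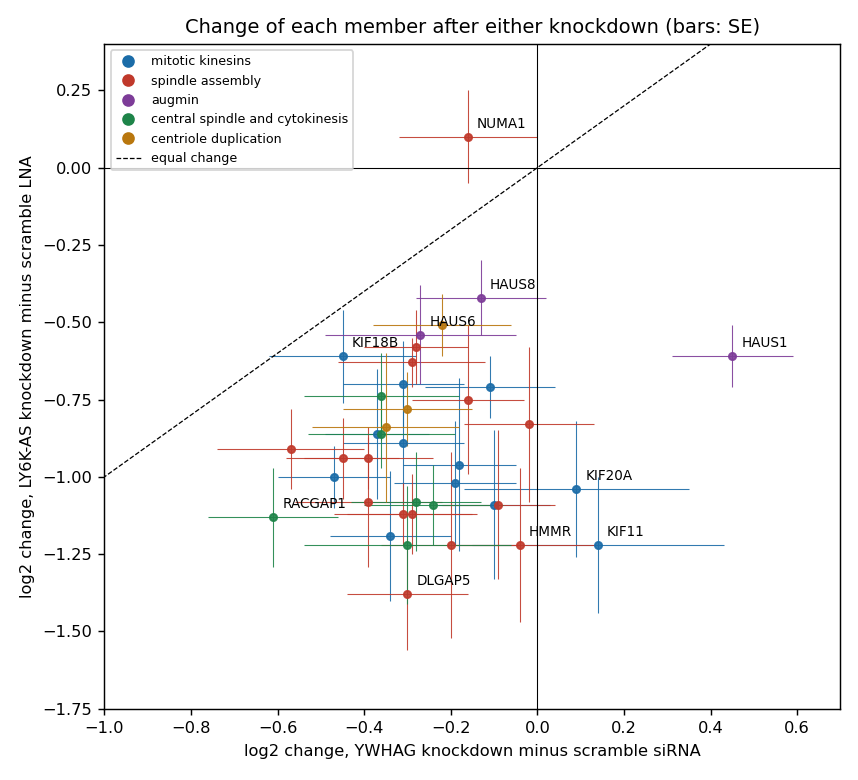
Log2 change of each member after YWHAG knockdown (horizontal axis) and LY6K-AS knockdown (vertical axis) with SE bars, coloured by role; the dashed line marks equal change. All members but NUMA1 lie below the dashed line, HAUS1 stands at 0.45 and −0.61, and the cloud has no slope (r 0.09).

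The reads of 19 members can be shared with a gene that overlaps their exons, by the annotation alone. The overlap is largest on the same strand for PRC1 (3181 bases with AC068831.7) and NUSAP1 (1787 bases with AC087721.2), both read-through loci, and on the opposite strand for NUMA1 (2760 bases with AP002490.1). KIF23, ASPM, FAM83D and CIT carry another annotation version in the tables, and for KIF23 and ASPM the exon length of GENCODE 29 did not give whole reads in the siRNA table, so their levels per length are approximate.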

How the data were processed

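A549 RNA-seq values were deposited as 2 tables of RPKM, made separately by the authors; the submitters' processing notes name STAR, Subread, featureCounts, Picard and hg38 without versions or roles, and whether strand was used is not stated in the sources at hand. RPKM steps of genes with the same identifier version gave whole reads (100% within 0.05 reads) with gene span (end minus start) as the length in the LNA table and merged exon length in the siRNA table, so LNA values were rescaled to merged exon length of GENCODE 29. Of 66206 rows, 57055 matched by identifier and 52238 with the same version; 116 unmatched rows at 0.5 RPKM or more were left out of the LNA fit, and 148 were kept in the siRNA fit.

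Genes with 0.5 RPKM or more in at least 2 of 4 libraries were tested on log2(RPKM + 1) with limma 3.58.1 (R 4.3.3; trended variance; Benjamini-Hochberg over all genes tested; threshold 0.05), each knockdown against its own controls, and the difference between effects over 8 libraries. Every member had at least 187 reads in each library, and no counting intervals are given. The steps were tested on simulated data with the same spread set for every library, a setting unlike these data, so the test does not measure power here. Over all genes, replicates differed beyond counting noise. Chi-square per degree of freedom was 110 and 143 in the LY6K-AS and YWHAG knockdown groups and 10.3 and 23.1 in their scramble groups. Same-numbered LNA libraries did not deviate together (correlation 0.08). Alternatives were pseudocounts, no low-value filter, values as deposited, voom on recovered reads, median centring, mitochondrial reads left out, a GC trend removed, pooled spread, a replicate block and each library left out. All members are named; in each comparison the smallest p in each role, the member differing least and any against the direction of most are given per library, and at most 2 genes with the smallest p for each wider list. A few further members are given per library beside a partner; these, and MKI67, were chosen after their values were seen. The members and lists were chosen with earlier results of these data known.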

Additional observations from a re-analysis of the deposited data

Results flagged for a closer look

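HAUS1, the augmin subunit, was flagged because its measured changes went in opposite directions, though neither passed adjustment. Both LY6K-AS knockdown libraries lay below both scramble LNA libraries (log2 change −0.61 ± 0.10 SE, limma adjusted p = 0.103), as in 30.5% of all genes tested. Both YWHAG knockdown libraries lay above both scramble siRNA libraries (0.45 ± 0.14, limma adjusted p = 0.260), as in 20.4% of all genes tested. The difference, LY6K-AS minus YWHAG effect, was −1.06 ± 0.17 and missed adjustment over 12861 genes (limma adjusted p = 0.0602).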

How the results depend on the processing

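After LY6K-AS knockdown the members' median log2 change was −0.59 on the values as deposited. Pooling the spread over 8 libraries called 8 members, all lower, and 64 genes (0.303% of 12861 genes lower and 0.194% higher). With each library left out in turn, genes called ran from 0 to 7725, members called from 0 to 39, members lower at an unadjusted p under 0.05 from 30 to 38, and the median from −1.15 to −0.76. NUMA1 turned to −0.01 with the GC trend removed and ran from −0.09 to 0.29 without 1 library. With the replicate number as a block 0 genes were called, 38 members were lower at an unadjusted p under 0.05 and the median was −0.94. These are the values without the block. With the GC trend removed, adding the block took the lower members at that p to 36, against 38 without it, with a median of −0.86 and NUMA1 at −0.01, and no gene was called in either fit. No paired analysis was possible for YWHAG knockdown because its control columns carry the numbers 2 and 3 and its labels 1 and 2.

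After YWHAG knockdown voom gave 4 lower members at an unadjusted p under 0.05, a median of −0.23, CKAP2 at 0.05 and HMMR at 0.03. Median centring gave a median of −0.25, CKAP2 at 0.02 and HMMR at 0.01, and pooled spread called 214 genes. Without 1 library the members lower at an unadjusted p under 0.05 numbered 0 to 14, and the median ran from −0.38 to −0.17. Members lower whatever their p numbered 33 to 36. In the same runs KIF11 ran from −0.28 to 0.55, KIF20A from −0.23 to 0.42, KIF22 from −0.26 to 0.04, CKAP2 from −0.14 to 0.09, HMMR from −0.21 to 0.12, NUMA1 from −0.32 to 0.00, HAUS6 from −0.56 to 0.01, HAUS8 from −0.27 to 0.01 and ANLN from −0.61 to 0.00.

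For the difference between effects, genes called numbered 81 with no filter, 85 as deposited, 53 with voom and 5 with mitochondrial reads left out of the total. As deposited, 10 members had an unadjusted p under 0.05, the median was −0.25, and KIF15 stood at 0.03, KIF18A at 0.15, HAUS6 at 0.01, CIT at 0.08, STIL at 0.02 and CEP152 at 0.13. Without 1 library genes called ran from 0 to 1185, members called from 0 to 16, members at an unadjusted p under 0.05 from 12 to 31, the median from −0.84 to −0.41, KIF18B from −0.35 to 0.04 and HAUS6 from −0.55 to 0.02. With TTTGAA as the only CHR form 15.4% of all promoters matched. The LNA values as deposited are per gene span (for CIT 191501 bases, against 13230 merged exon bases). They are thus smaller than the rescaled values, and the same 1 RPKM was added to them before log2. The cause of these shifts was not tested. With 2 libraries a group, each gene has 2 residual degrees of freedom within a comparison. To these limma adds information on spread borrowed from all genes tested.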
